A study of Mus musculus with 6 samples.

Results

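The endoplasmic reticulum (ER) folds and ships the proteins that a bone-forming cell secretes, and 34 genes of this machinery were followed here in cultured mouse calvarial preosteoblasts. They were taken by symbol from the deposited expression table, which holds 17001 rows, and all 34 were found in it. By role they comprise ER chaperones and their partners, lectin chaperones, protein disulfide isomerases, the sensors of the unfolded protein response with *Xbp1*, factors of the OASIS family, genes of ER-associated degradation, the Sec61 translocon, and genes that export cargo such as procollagen in COPII vesicles. The cells were precursors of osteoblasts, released enzymatically from the skull caps of 3-day-old mice. The 3 control libraries came from Nell2 fx/fx mice, which carry the floxed *Nell2* alleles without Cre. The 3 libraries labelled cKO came from Col1-cre; Nell2 fx/fx mice, in which a Col1a1 promoter fragment drives Cre, so that deletion is limited to cells in which this promoter has been active. All cells were grown in α-MEM with fetal bovine serum. The labels do not say whether the libraries of a group came from separate animals or cultures, so the tests measure only the spread between these libraries.

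When unfolded protein collects in the ER, 3 sensors in its membrane respond, namely IRE1α (gene *Ern1*), PERK (gene *Eif2ak3*) and ATF6. IRE1α splices the mRNA of *Xbp1*, ATF6 is cut to release a transcription factor, and PERK slows translation while ATF4 is made. ATF6 and spliced XBP1 raise chaperones and degradation genes, in part through the ER stress response element (ERSE) in their promoters. Osteoblasts load the ER with procollagen, and CREB3L1 (OASIS) and CREB3L2 are known in these cells for raising genes of secretion.

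Sequence before the transcription start was examined because many of these genes are known to share control elements. RefSeq promoters of GRCm38.p6 were available for 28 of the 34 genes, and *Atf6*, *Creb3l1*, *Derl1*, *Hyou1*, *Manf* and *Sec61a1* were not matched. The 250 bases before the start were searched on both strands. ERSE was taken as CCAAT and CCACG with 9 bases between them, ERSE-II as ATTGG and CCACG with 1 base between them, and the C/EBP-ATF response element (CARE), a site known to bind ATF4, as TGATGNAA. No position was shared between matches of different elements in these genes. ERSE was present in 9 of the 28 genes (32.1%), against 0.113% of 32851 promoters of the same length. The 9 were *Hspa5*, *Hsp90b1*, *Dnajc3*, *Creld2*, *Calr*, *Canx*, *Pdia6*, *Syvn1* and *Derl3*. ERSE-II and CARE were each present in 1 of the 28, *Herpud1*, against 0.0304% and 3.45% of all promoters. The 28 were counted by gene and the background by promoter. Since shared elements were known beforehand in such genes, these shares are no test. A match is only a match of letters. The stretches below show *Herpud1*, the gene with the largest difference between the groups, and 4 genes with ERSE, of which *Creld2*, *Calr* and *Hsp90b1* differed in the sign or size of their difference and *Derl3* was too low to test, in gene orientation with the matched letters in capitals. They lie at chr8:94386297-94386407 (plus strand), chr15:88819500-88819558 (plus), chr10:75893222-75893280 (plus), chr8:84847055-84847113 (minus) and chr10:86705513-86705676 (minus), in this order.
Herpud1: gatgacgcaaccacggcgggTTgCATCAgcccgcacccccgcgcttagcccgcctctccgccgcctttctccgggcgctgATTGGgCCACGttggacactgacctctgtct
Creld2: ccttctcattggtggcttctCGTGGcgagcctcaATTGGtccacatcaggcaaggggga
Derl3: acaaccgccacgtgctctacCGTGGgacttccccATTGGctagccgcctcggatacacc
Calr: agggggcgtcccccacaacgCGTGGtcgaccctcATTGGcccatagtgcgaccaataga
Hsp90b1: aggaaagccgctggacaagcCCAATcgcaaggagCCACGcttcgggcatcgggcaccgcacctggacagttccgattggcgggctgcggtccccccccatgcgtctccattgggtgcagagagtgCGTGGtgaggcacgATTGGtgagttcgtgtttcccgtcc
In *Herpud1* the CARE match runs from 112 to 105 bases before the start, on the opposite strand, and ERSE-II from 52 to 42. *Hsp90b1* carries ERSE at 212 to 194 bases and, on the opposite strand, at 107 to 89 bases. The ERSE of *Hspa5* lies 65 to 47 bases before the RefSeq start, inside a transcript of GENCODE release M21, and is not printed.

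Expression was measured by mRNA sequencing and deposited as FPKM, a fragment count divided by transcript length and library size, so levels of different genes can be set side by side. FPKM does not hold the number of reads, so depth and counting error are unknown. Summed over all rows, FPKM came to 573307 to 606428 per library. The targeted gene, *Nell2*, was at 3.17, 2.59 and 1.88 FPKM in control replicates 1 to 3 and at 5.64, 1.61 and 5.74 in the libraries labelled cKO, so it was not lower in the latter, and directions below follow the labels. The paper reports the deletion of NELL2 in calvarial preosteoblasts from qRT-PCR and western blotting. A value per gene does not show whether single exons are missing. Osteoblast lineage markers were abundant, with *Col1a1* between 8052.61 and 8578.05 FPKM. The 8 markers summed to 17660 to 18506 FPKM in control libraries and to 18116 to 18334 in those labelled cKO, sums carried mostly by *Col1a1*, *Col1a2* and *Spp1*. The less abundant *Ibsp* (mean 78.2 FPKM in controls and 29.5 in the cKO group), *Bglap* (5.43 and 1.71), *Alpl* (31.6 and 22.6) and *Sp7* (15.9 and 11.1) were lower at an unadjusted p under 0.05. For each of them all 3 libraries labelled cKO lay below every control, with *Ibsp* at 34.64 FPKM in cKO replicate 1. Over all genes tested, 13.1% had such a p in limma and 18.3% separated without overlap. The other listed markers overlapped between the groups, with means of 13.55 and 11.58 FPKM for *Runx2* and 8299.5 and 8245.7 for *Col1a1*. *Col1a2* (7952 and 8156) and *Spp1* (1647 and 1768) were on average higher in the cKO group. Epithelial markers summed to 0.46 to 13.4 FPKM in controls and 18.2 to 42.7 in libraries labelled cKO, with 3 of 3 tested markers higher at an unadjusted p under 0.05, and 3 of the 6 listed at 0 in some library. Cartilage markers were higher for 3 of 5 in the same way, summing to 99.2 to 168 and 154 to 179 FPKM. Macrophage (35.3 to 96.6 against 48.5 to 78.9), endothelial (1.84 to 3.87 against 1.84 to 3.40) and skeletal muscle markers (29.8 to 55.0 against 40.6 to 47.0) overlapped, and of the plasma cell markers only *Sdc1* was above the filter. Y-linked genes were expressed in control replicate 3 and in cKO replicates 1 and 3. Apart from a fit with a Y-linked covariate, given at the end, the part of these differences in the results below was not tested. In RNA from a mixed culture, fewer cells of a type and less RNA per cell cannot be told apart.

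The genes covered a wide range of levels. *P4hb*, which forms disulfide bonds and is also a subunit of collagen prolyl 4-hydroxylase, was the most abundant at 884 FPKM on average over 6 libraries, above 99.3% of the rows of the table. *Calr*, a calcium-binding lectin chaperone, followed at 751 FPKM and *Sec61b*, a subunit of the protein-conducting channel, at 543 FPKM. *Hsp90b1* (GRP94), *Pdia3* and *Hspa5* (BiP, the main ER chaperone) lay between 445 and 487 FPKM. At the low end stood the sensors, *Ern1* at 3.24 FPKM, *Atf6* at 7.14 and *Eif2ak3* at 14.9. *Derl3*, a Derlin of ER-associated degradation, averaged 0.67 FPKM and was the only one of the 34 that did not reach 1 FPKM in at least 3 libraries, which left 33 for testing.

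**Figure D1:**
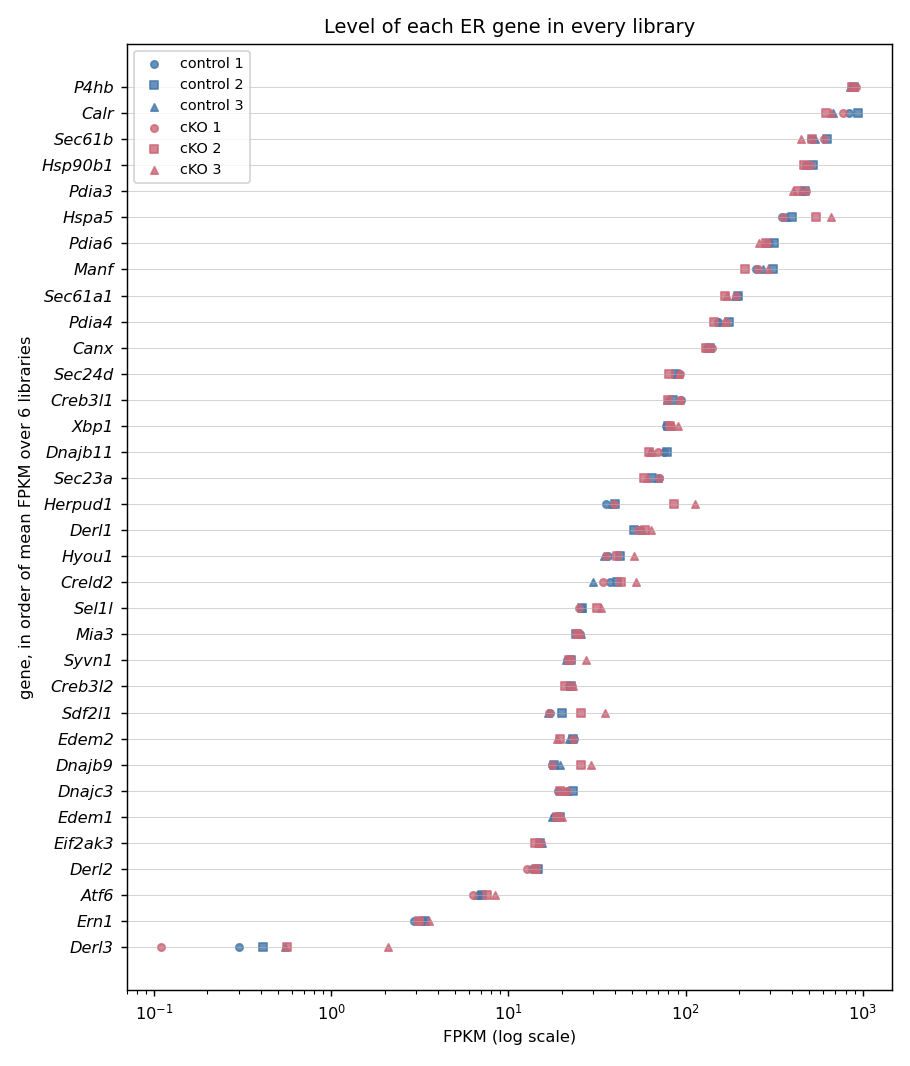
FPKM on a log axis for each of the 34 ER genes, ordered by mean level, with 1 point per library (blue, control; red, libraries labelled cKO; marker shape, replicate). *P4hb* is the highest at a mean of 884 and *Derl3* the lowest at 0.67, and for most genes the 6 points lie close together.

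The study was designed to compare preosteoblasts with and without NELL2, and the values here compare the libraries as labelled, in which *Nell2* mRNA was not lower. Across 3 against 3 libraries, most of these genes were level between the groups. The difference in log2(FPKM + 1) was under 0.2 in size for 27 of the 33, and the median difference was -0.00029, beside -0.02 over the 11590 genes tested. After Benjamini-Hochberg adjustment of limma's p-values, 0 of 33 passed 0.05, as did 0 of all genes (0%). At an unadjusted p under 0.05 there was 1 gene, *Herpud1*, or 3.03% of the 33, against 13.1% of all genes. In 0 of 33 did the control and cKO values separate without overlap, against 18.3% of all genes.

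This average covered unlike libraries. Relative to the control mean, cKO replicate 1 differed by more than 0.25 in log2(FPKM + 1) for 0 of 33 genes. In cKO replicate 2, 6 genes were higher and 2 lower by more than this, and in cKO replicate 3, 9 were higher and 3 lower. Among the controls there was 1 such gene, *Calr* in control replicate 3. Of 104 other ER genes tested, described below, 2 were higher and 2 lower by this limit in cKO replicate 1. In cKO replicate 2 the numbers were 5 and 8, and in cKO replicate 3 they were 6 and 14. Counts by library were not made over all genes tested, so they do not show whether this difference between libraries is particular to ER genes. The standard deviation of these differences over the 33 genes was 0.06 to 0.08 in the controls, 0.07 in cKO replicate 1, 0.30 in cKO replicate 2 and 0.39 in cKO replicate 3. For 24 of the 33 genes cKO replicate 1 lay within the range of the controls, with 6 above it and 3 below. Of the 104 other ER genes, it lay above all controls for 28 and below all controls for 22. For the markers *Ibsp*, *Bglap*, *Alpl* and *Sp7* cKO replicate 1 lay below the controls. Results are therefore given with and without this library. Leaving out each library in turn was planned, but this one was singled out after its values for these genes were seen to lie with the controls. For such genes that choice by itself widens the differences and narrows the spread in the cKO group, so every p-value without cKO replicate 1 describes the remaining 5 libraries and is no independent test. Without it, which leaves 2 libraries labelled cKO against 3 controls, 3 of 33 genes passed an adjusted p of 0.05 in limma (*Herpud1*, *Hspa5* and *Dnajb9*, all higher), against 2.9% of all genes, and 10 had an unadjusted p under 0.05 (30.3%, 7 higher and 3 lower), against 21.3%. Values separated in 16 of 33 (48.5%, 8 in each direction), against 42% of all genes. With another library left out in turn, 0 of 33 passed after adjustment.

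**Figure D2:**
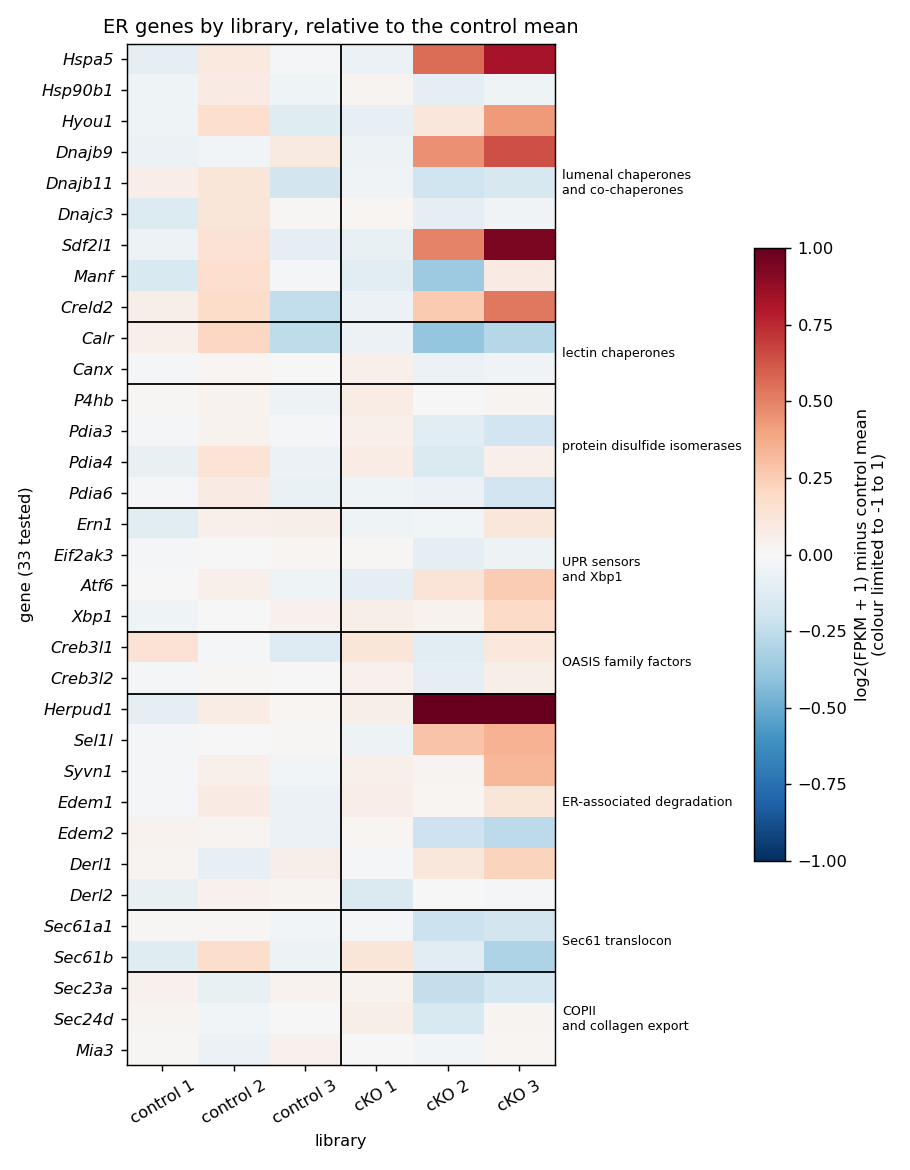
Colour gives log2(FPKM + 1) minus the control mean for 33 ER genes (rows, by role) in 6 libraries (columns), limited to -1 to 1. Red cells gather in cKO replicates 2 and 3 in *Herpud1*, *Sdf2l1*, *Hspa5* and *Dnajb9*, while cKO replicate 1 has no difference above 0.25.

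Among the lumenal chaperones, BiP and some of its partners were high in cKO replicates 2 and 3, while the most abundant member was level. *Hsp90b1*, which folds integrins and other clients, was at 478.21, 522.46 and 479.27 FPKM in the controls and at 502.79, 463.69 and 477.44 in cKO replicates 1, 2 and 3, a log2 fold change of -0.04 (SE 0.07, adjusted p = 0.836). *Hspa5* was at 347.74, 396.43 and 367.96 FPKM in the controls and at 355.11, 544.49 and 657.97 in cKO replicates 1, 2 and 3. Only the last 2 of these stood above the controls. The controls averaged 371 ± 24.5 FPKM (SD, n = 3) and the cKO group 519 ± 153 (SD, n = 3), for a log2 fold change of 0.44 (SE 0.21, adjusted p = 0.420), and 0.69 (SE 0.11, adjusted p = 0.0350) without cKO replicate 1.

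*Dnajb9* (ERdj4), a BiP co-chaperone that binds misfolded proteins, was at 17.56, 17.99 and 19.6 FPKM in the controls and at 17.67, 25.59 and 29.34 in cKO replicates 1, 2 and 3. Its log2 fold change was 0.35 (SE 0.17, adjusted p = 0.427), and 0.55 (SE 0.09, adjusted p = 0.0365) without cKO replicate 1. The groups overlapped through that library. *Sdf2l1*, which acts with BiP and its co-chaperones, had 17.27, 19.97 and 16.7 FPKM in the controls and 17.01, 25.63 and 35.28 in the libraries labelled cKO. Its log2 fold change of 0.45 (SE 0.24, adjusted p = 0.450) became 0.72 (SE 0.15, adjusted p = 0.0676) without cKO replicate 1. That library was singled out after its values were seen, so p-values without it are no independent test. *Creld2*, a secreted ER-stress protein, was at 37.47, 40.93 and 30.11 FPKM in the controls and at 34.35, 43.11 and 52.23 in the libraries labelled cKO, so cKO replicate 1 again lay among the controls. *Hyou1* (GRP170), a nucleotide exchange factor of BiP, was above the controls in cKO replicate 3 alone, at 50.97 FPKM. *Dnajb11*, *Dnajc3* and *Manf* had log2 fold changes between -0.13 and -0.04 with groups that overlapped. For the 9 genes of this group the median log2 fold change was 0.15, and 0 had an unadjusted p under 0.05.

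**Figure D3:**
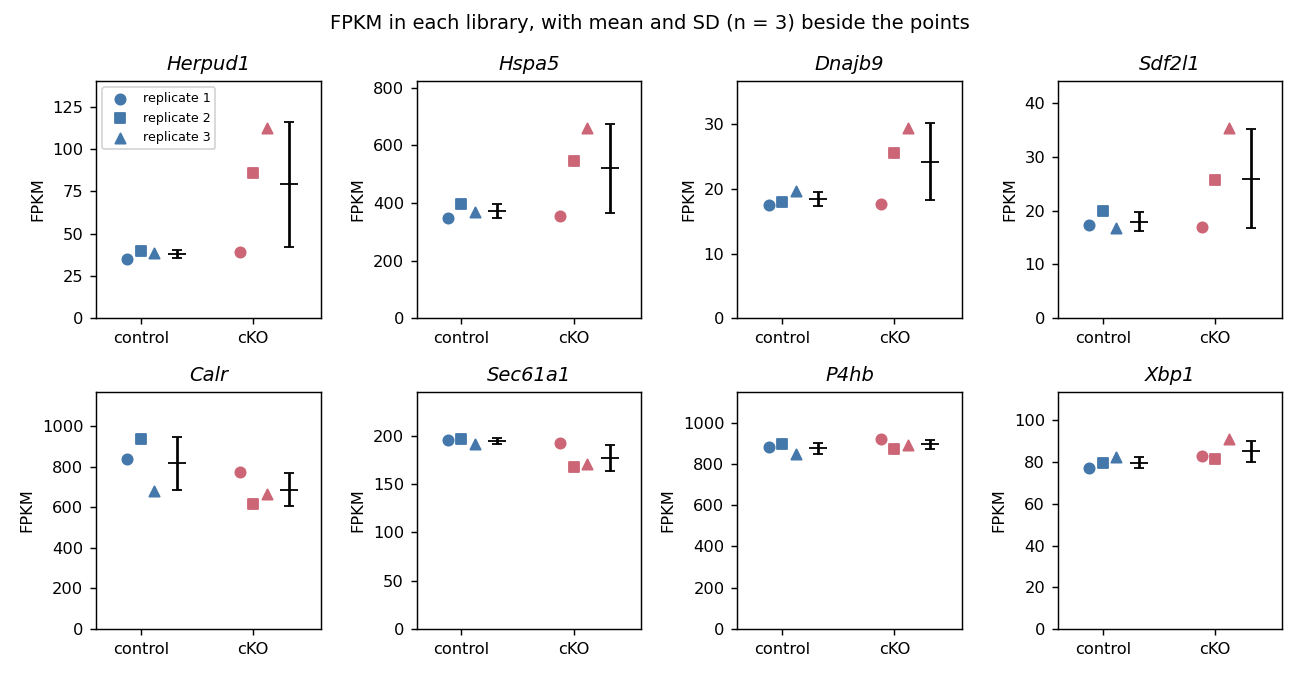
FPKM in each library for 8 ER genes (blue, control; red, libraries labelled cKO; marker shape, replicate), with the mean and SD of 3 libraries in black and axes that start at 0. In *Herpud1*, *Hspa5*, *Dnajb9* and *Sdf2l1* cKO replicate 1 lies with the controls and replicates 2 and 3 above them, whereas *P4hb* and *Xbp1* stay within a narrow band.

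The calnexin and calreticulin cycle, which holds glycoproteins until they are folded, did not follow BiP. *Calr* was at 836.14, 935.41 and 677.62 FPKM in the controls and at 775.15, 617.36 and 664.98 in cKO replicates 1, 2 and 3, with a log2 fold change of -0.24 (SE 0.14, adjusted p = 0.477), and -0.34 (SE 0.14, adjusted p = 0.240) without cKO replicate 1. Without control replicate 3, *Calr* and the co-chaperone *Dnajb11* each had an unadjusted p under 0.05 in limma, and neither passed after adjustment. That library was the lowest control for both genes, so leaving it out by itself widens their differences and is no independent test. For *Calr*, cKO replicates 2 and 3 lay below all controls, though control replicate 3 was close to them. *Canx*, its membrane-bound relative, ranged from 129.77 to 140.04 FPKM over all 6 libraries. The oxidoreductase *Pdia3* (ERp57), which works with these lectins, was below all controls in cKO replicates 2 and 3, at 430.54 and 404.66 FPKM, against 456.38 to 473.66 in controls and 479.72 in cKO replicate 1. The other disulfide isomerases were level. *P4hb* was at 883.63, 894.66 and 845.14 FPKM in the controls and at 919.32, 873.78 and 889.01 in the libraries labelled cKO, which gave a log2 fold change of 0.03 with a 95% interval of -0.11 to 0.17. *Pdia4* and *Pdia6* had log2 fold changes of -0.01 and -0.10.

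The genes of the sensors were expressed at low to moderate levels and were not detectably different between the groups. *Ern1* was at 2.92, 3.36 and 3.38 FPKM in the controls and at 3.09, 3.14 and 3.57 in the libraries labelled cKO, which gave a log2 fold change of 0.02 with a 95% interval of -0.17 to 0.20. *Eif2ak3* was at 15, 15.11 and 15.39 FPKM in the controls and at 15.27, 14.16 and 14.63 in the libraries labelled cKO, which gave a log2 fold change of -0.04 with an interval of -0.18 to 0.09. *Atf6* was at 6.84, 7.11 and 6.61 FPKM in the controls and at 6.32, 7.59 and 8.36 in the libraries labelled cKO, so that cKO replicate 1 was the lowest of the 6 and replicates 2 and 3 the highest. Its log2 fold change was 0.09 (SE 0.10, adjusted p = 0.688), and 0.19 (SE 0.07, adjusted p = 0.209) without cKO replicate 1. *Xbp1* was at 77.36, 79.79 and 82.25 FPKM in the controls and at 82.98, 81.72 and 91 in the libraries labelled cKO, which gave a log2 fold change of 0.09 with an interval of -0.07 to 0.25. A value per gene does not separate spliced from unspliced *Xbp1* mRNA, nor does it report cleavage of ATF6 or phosphorylation of the kinases.

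The OASIS factors, which are cleaved like ATF6, were level. *Creb3l1* was at 94.78, 85.25 and 78.29 FPKM in the controls and at 93.27, 79.94 and 92.45 in the libraries labelled cKO, which gave a log2 fold change of 0.04 with a 95% interval of -0.19 to 0.27. *Creb3l2* ranged from 20.73 to 23.18 FPKM over the 6 libraries, with a log2 fold change of 0.00 and an interval of -0.15 to 0.16.

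The largest difference was in ER-associated degradation, which returns misfolded proteins to the cytosol for the proteasome. *Herpud1*, a membrane protein that assembles the degradation complex around the ligase HRD1, lies on chromosome 8 from 94386438 to 94395377 on the plus strand (ENSMUSG00000031770.16, GRCm38). It was at 35.34, 39.87 and 38.39 FPKM in the controls and at 39.45, 86.18 and 112.3 in cKO replicates 1, 2 and 3. Replicates 2 and 3 were far above the controls, whereas replicate 1 lay below control replicate 2. The controls averaged 37.9 ± 2.31 FPKM (SD, n = 3) and the cKO group 79.3 ± 36.9 (SD, n = 3). The log2 fold change was 0.92 (SE 0.35, adjusted p = 0.343), and 1.36 (SE 0.12, adjusted p = 0.0146) without cKO replicate 1. With any other library left out it stayed positive but no longer had an unadjusted p under 0.05, and the smallest value, 0.61 (adjusted p = 0.691), came without cKO replicate 3.

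Partners of HERPUD1 differed less. *Sel1l*, the adaptor of HRD1, was at 25.65, 26.09 and 26.11 FPKM in the controls and at 25, 31.79 and 33.29 in the libraries labelled cKO. The log2 fold change was 0.19 (SE 0.11, adjusted p = 0.477), and 0.32 (SE 0.06, adjusted p = 0.0643) without cKO replicate 1. *Syvn1*, which encodes HRD1 itself, was above the controls in cKO replicate 3, at 27.49 FPKM, but not in replicates 1 and 2, at 22.45 and 22.06 against a highest control of 22.5. *Derl1* was above the controls in cKO replicates 2 and 3, at 58.68 and 63.48 FPKM against 51.07 to 56.46. *Edem1* and *Derl2* had log2 fold changes of 0.07 and -0.06. *Edem2*, which starts the mannose trimming that marks glycoproteins for degradation, lay on the other side, at 19.63 and 18.84 FPKM in cKO replicates 2 and 3 against 21.84 to 23.43 in controls and 23.19 in cKO replicate 1. *Derl3*, below the filter, was at 0.3, 0.41 and 0.55 FPKM in the controls and at 0.11, 0.56 and 2.09 in the libraries labelled cKO, so that 1 library was set apart and no fold change was computed.

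**Figure D4:**
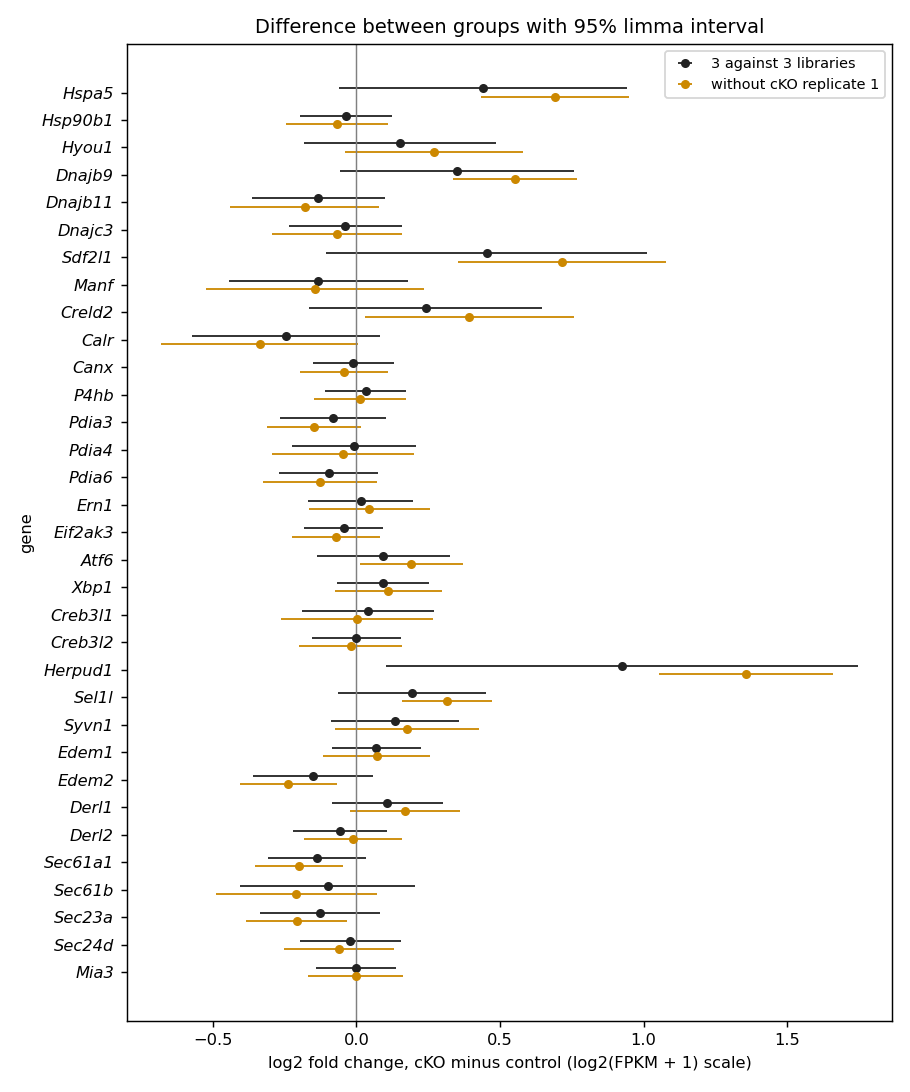
Log2 fold change, libraries labelled cKO minus control on the log2(FPKM + 1) scale, for 33 ER genes with the 95% interval from limma, for 3 against 3 libraries (black) and without cKO replicate 1 (orange). *Herpud1* is farthest from 0 at 0.92 and 1.36, and only its interval excludes 0 among the black bars. The orange intervals leave out a library singled out after its values were seen and are no independent test.

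Entry into the ER and export from it lay slightly lower for some genes in cKO replicates 2 and 3. *Sec61a1*, the pore of the translocon, was at 195.88, 196.38 and 191.22 FPKM in the controls and at 192.49, 167.57 and 171.15 in the libraries labelled cKO. Its log2 fold change was -0.14 (SE 0.07, adjusted p = 0.450), and -0.20 (SE 0.06, adjusted p = 0.154) without cKO replicate 1. *Sec61b* was at 513.1, 631.06 and 537.92 FPKM in the controls and at 606.84, 517.98 and 450.54 in the libraries labelled cKO, with groups that overlapped (log2 fold change -0.10). *Sec23a*, a COPII coat subunit whose loss disturbs collagen export in skull development, was at 57.95 and 60.44 FPKM in cKO replicates 2 and 3 against 65.02 to 70.56 in controls and 70.37 in cKO replicate 1. *Sec24d*, the cargo-binding subunit that partners it, was at 91.32, 87.81 and 89.64 FPKM in the controls and at 93.42, 80.59 and 91.48 in the libraries labelled cKO (log2 fold change -0.02). *Mia3* (TANGO1), the receptor that packs procollagen, ranged from 23.94 to 25.72 FPKM over the 6 libraries and had a log2 fold change of 0.00 with a 95% interval of -0.14 to 0.14.

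Genes that shared ERSE before their start had estimates on both sides of 0, none with an unadjusted p under 0.05 in limma. The 8 of them that were tested had log2 fold changes of 0.44 (*Hspa5*), 0.24 (*Creld2*), 0.13 (*Syvn1*), -0.01 (*Canx*), -0.04 (*Hsp90b1*), -0.04 (*Dnajc3*), -0.10 (*Pdia6*) and -0.24 (*Calr*). The printed stretches of *Creld2* and *Calr* thus hold the same element in the same orientation, 126 to 108 and 162 to 144 bases before the start, in genes whose differences had opposite signs, and neither passed the test.

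A wider list of the pathway was read beside these genes. Of 107 other ER and secretory genes listed, 105 were in the table and 104 were tested. Of these, 9 had an unadjusted p under 0.05, 3 higher and 6 lower, a smaller share than the 13.1% of all genes, and 0 passed after adjustment in limma. Their median log2 fold change was -0.05. In the foldase list, *Ero1l*, the oxidase that recharges disulfide isomerases, was at 14.28, 13.4 and 14.46 FPKM in the controls and at 15.84, 37.57 and 35.55 in the libraries labelled cKO. All 3 of the latter were above the controls, with a log2 fold change of 0.93 (SE 0.30, adjusted p = 0.312), and 1.32 (adjusted p = 0.00299) without cKO replicate 1. *Pdia5* (0.17, higher), *Tmx1* (-0.22) and *Dnajc10* (-0.24, a reductase of ER-associated degradation) were the others of this list with an unadjusted p under 0.05. *Vcp*, the ATPase that pulls proteins out of the ER membrane, was at 215.47, 215.5 and 215.36 FPKM in the controls and at 196.42, 166.21 and 173.99 in the libraries labelled cKO, which gave a log2 fold change of -0.27 (SE 0.08, adjusted p = 0.312). The COPII subunits *Sec13* and *Sec23b* (-0.26 and -0.16), the signal recognition receptor subunit *Srprb* (-0.19) and *Creb3l4* (0.25) made up the 9. Among oligosaccharyltransferase subunits, glycoprotein quality control genes, and KDEL receptors with the COPI coat, 0 had an unadjusted p under 0.05. Without cKO replicate 1, 24 of the 104 did, 4 higher and 20 lower, a share near the 21.3% of all genes.

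A list of genes of the PERK and ATF4 arm, none of which is among the 34, had larger differences. The list only carries the name of this arm: the activity of PERK was not measured, and what raised these genes was not tested. Of 12 genes listed, 10 had an unadjusted p under 0.05, all of them higher, against 13.1% of all genes, and 8 separated without overlap, against 18.3%, though 0 passed after adjustment in limma. The count was 6 without control replicate 2, cKO replicate 2 or cKO replicate 3, and 12 without cKO replicate 1, where the share of all genes was 21.3%. Because the list was chosen with earlier results of these data known, its counts are no independent test. The median log2 fold change was 0.59. *Ddit3* (CHOP), a factor made late in the response, was at 24.77, 22.52 and 34.83 FPKM in the controls and at 36.78, 135.9 and 145.06 in the libraries labelled cKO. Its log2 fold change was 1.71 (SE 0.51, adjusted p = 0.312). *Trib3*, *Chac1* and *Atf3* had log2 fold changes of 1.89, 1.34 and 0.99 (adjusted p = 0.312, 0.312 and 0.347). The exceptions were *Ppp1r15b* (0.15) and *Eif2s1* (-0.10), which encode a regulatory subunit of an eIF2α phosphatase and eIF2α itself. In this list too cKO replicate 1 was nearest to the controls, though above all of them for 8 of the 12 genes. Its median was 0.17 above the control mean, against 0.83 and 0.75 in cKO replicates 2 and 3. For the 33 ER genes the same medians were 0.01, -0.06 and 0.05. The difference between the lists was not tested.

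**Figure D5:**
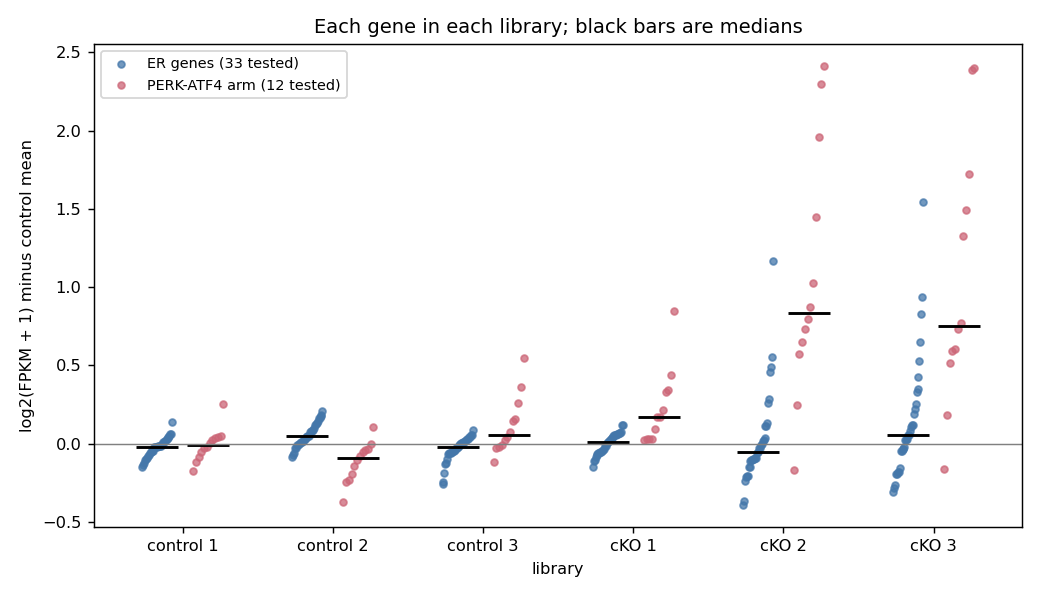
Log2(FPKM + 1) minus the control mean for every tested gene in every library, for 33 ER genes (blue) and 12 genes of the PERK-ATF4 arm (red), with black bars at the medians. The red medians are 0.17, 0.83 and 0.75 in the libraries labelled cKO, and the blue medians stay between -0.06 and 0.05 there while single genes reach 1.55.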

How the data were processed

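Messenger RNA of 6 libraries, 3 per group, was read as 150 bp pairs. The authors aligned the reads with HISAT2 against mouse transcripts and deposited FPKM with 2 decimals for each gene symbol. The submitters' processing notes name GRCm38 and DESeq, and the program that computed FPKM is not given in the sources used here. FPKM keeps no read depth, so no count test was run. From the deposited FPKM, log2(FPKM + 1) was fitted by lmFit and eBayes of limma 3.58.1 in R 4.3.3, with Benjamini-Hochberg adjusted p-values, for the 11590 rows with at least 1 FPKM in at least 3 libraries. The pseudocount understates changes of low genes. Tests were two-sided. The script was tested on simulated data. Alternatives changed the pseudocount, filter, scaling, variance trend, covariate, replicate block or the libraries. Gene positions are from GENCODE M21 and promoters from RefSeq, both on GRCm38. The genes and lists were chosen with earlier results of these data known. Values in every library are given for genes with an unadjusted p under 0.05, the sensors, *Xbp1*, the most abundant gene of each role and *Derl3*. The other genes shown by library, such as *Hspa5*, were chosen after their values were seen. Of the other lists, at most the 4 largest changes were named, and *Srprb*, *Creb3l4*, *Ppp1r15b* and *Eif2s1* complete a count.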

Additional observations from a re-analysis of the deposited data

How the results depend on the processing

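FPKM hides depth, so the counting error of low values such as those of *Derl3* and *Ern1* is unknown, and 3 libraries a group limit the precision. In each setting with all 6 libraries 0 of the ER genes, and 0 of all genes, had an adjusted p under 0.05. ER genes with an unadjusted p under 0.05 numbered 1, but 0 with no filter on low values and more with a replicate block, given below. ER genes without overlap numbered 0, but 1 (*Herpud1*) with median-ratio scaling and 1 (*Herpud1*) with TPM scaling. The 9 other ER genes with an unadjusted p under 0.05 became 14 with no filter and 4 with a Y-linked covariate. They were also fewer with a replicate block, given below. The cause was not tested. The log2 fold change of *Herpud1* ran from 0.92 to 0.98 over the 8 alternatives with 6 libraries (adjusted p 0.319 to 0.476) and from 0.61 to 1.36 with 1 library left out.

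With 1 library left out in turn, ER genes with an unadjusted p under 0.05 numbered 0 to 10 and with an adjusted p 0 to 3, and those without overlap 0 to 16. The median log2 fold change of the ER genes ran from -0.012 to 0.045. Genes of the whole table with an adjusted p under 0.05 numbered 0 to 334. The 9 other ER genes became 2 to 24 (2 or 3 without control replicate 1 or 2 or cKO replicate 2 or 3), and the 10 genes of the PERK-ATF4 arm 6 to 12. The highest of each of these counts came without cKO replicate 1. Of 461 values of single genes in all alternatives 22 changed sign, none of them past the threshold and all with a main value under 0.1 in size.

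Same-numbered libraries share only a number. After subtracting group means, those pairs correlated at 0.03, -0.17 and 0.21, and not every library correlated best with its own number. With the replicate number as a block, 3 ER genes (*Herpud1*, *Hspa5* and *Dnajb9*) had an unadjusted p under 0.05 and 5 other ER genes did.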
